A study of Rattus norvegicus with 11 samples.

Results

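Genes of cholesterol efflux, sterol storage and lipid droplets were examined in the rat striatum after intracerebral hemorrhage (ICH). The 10 genes were chosen by name, with no cutoff on a measured value: Abca1, Abcg1, Ch25h, Soat1, Plin2, Nr1h3, Npc2, Lipa, Fabp4 and Fabp5. The choice was made with earlier results of these data known. The study's table of regulator targets, drawn from genes changed in its own comparisons, includes Ch25h, Plin2, Nr1h3, Npc2 and Fabp5. The shares over all genes given below are therefore a description and no independent test of the set. All 10 were found among the 30560 genes of the deposited table, each in a single row. RNA of the striatum was sequenced in bulk at day 3, with 1 library per rat, from adult male Sprague-Dawley rats. The 3 common hemorrhage rats (IC) had received 0.2 U of collagenase VII-S in 1.0 μL of saline in the right striatum, and the 3 severe hemorrhage rats (IS) had received 0.6 U in 3.0 μL. The 3 IS-HA rats had received the IS dose, and 150 μL of the hematoma, about 75% of it, was aspirated 6 h after induction. The 2 Normal rats had received neither collagenase nor aspiration, so the injection itself and the hemorrhage cannot be told apart, and no group had aspiration without hemorrhage. Collagenase causes bleeding by digesting the vessel wall, which differs from the rupture of a diseased vessel.

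Phagocytes that clear red cells and myelin take up more cholesterol than they can break down. The cholesterol is freed in the lysosome, where Lipa (lysosomal acid lipase) splits cholesteryl esters and Npc2 hands the free sterol to the membrane protein Npc1. It is then either esterified by Soat1 and stored in droplets coated with perilipins such as Plin2, or exported by the transporters Abca1 and Abcg1 to lipoprotein particles. Nr1h3 encodes the liver X receptor alpha (LXRα), which senses oxysterols and drives transcription of both transporters, and Ch25h makes the oxysterol 25-hydroxycholesterol. Fabp4 and Fabp5 are cytosolic carriers of fatty acids, found in macrophages, and Fabp4 is also abundant in adipocytes.

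Promoter sequences from RefSeq (GRCr8) were held for 7 of the 10 genes, in 8 windows, and the 250 bases before the annotated start were searched on both strands. The LXR element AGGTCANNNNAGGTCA, with at most 2 mismatches in its fixed letters, lay in 0 of the 8 windows and in 2.48% of all 33469 windows. A window without a match at this limit may still hold an LXR element that departs further from these letters. The PPAR element AGGTCANAGGTCA, searched in the same way, lay in 0 of the 8 and in 3.15% of all windows. The E-box CACGTG lay in 2 of the 8, those of Abca1 and of 1 of the 2 Plin2 starts, and in 5.59% of all windows. With 3 mismatches, a limit chosen after the sequences were seen, the Abca1 window held an LXR-like match on its opposite strand, 70 to 55 bases before the start, as did 18.6% of all windows. The windows of these 2 genes are shown because they hold those matches. Capitals mark the E-box in both, and in Abca1 also the later LXR-like match. They run 5′ to 3′ on the gene strand, which is the minus strand, at chr5:72596474-72596723 for Abca1 and chr5:106229019-106229268 for Plin2 in GRCr8, and were not set beside any binding data.
Abca1: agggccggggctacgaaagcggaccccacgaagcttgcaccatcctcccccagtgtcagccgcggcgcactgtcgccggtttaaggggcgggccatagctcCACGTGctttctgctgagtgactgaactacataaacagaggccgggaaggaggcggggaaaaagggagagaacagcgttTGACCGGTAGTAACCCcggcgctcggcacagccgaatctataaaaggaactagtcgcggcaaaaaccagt
Plin2: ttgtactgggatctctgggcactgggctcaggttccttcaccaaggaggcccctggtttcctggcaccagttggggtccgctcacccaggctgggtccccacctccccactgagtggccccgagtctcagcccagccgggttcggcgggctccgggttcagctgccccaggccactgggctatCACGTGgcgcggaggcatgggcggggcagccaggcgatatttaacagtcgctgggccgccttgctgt

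The total counts per library ran from 6701301 to 18817645, and a gene at the floor of 3 counts stood at 0.159 to 0.448 CPM (counts scaled to the library size). Levels are given below as TPM (transcript abundance scaled to gene length and library size). Differences are given as log2 fold changes of counts with their standard error (SE), from the edgeR quasi-likelihood test with Benjamini-Hochberg adjustment over 15742 genes. A gene was called when its adjusted p was under 0.05 and its fold change at least 2-fold (log2 of 1). The smallest library, IS-HA replicate 2, received a quality weight of 0.155 in voom, where the other rats had 0.513 to 1.98, and stood apart from IS-HA replicates 1 and 3 in several of the values below. The summed TPM of 6 phagocyte markers (Aif1, Csf1r, Itgam, Tyrobp, Cd68 and Ptprc) was 95.5 to 122 in Normal, 969 to 1540 in IC, 1610 to 2910 in IS and 1230 to 2060 in IS-HA. Of 6 neuron markers, 0 were called higher and 6 lower in IS against Normal, and their summed TPM was 4200 to 4660 in Normal and 772 to 1970 in IS. Since the tissue was sequenced in bulk, a change in the number of cells of a type and a change of RNA per cell cannot be told apart. Neutrophil markers were higher in IS as well (5 of 5 tested, median log2 fold change 7.74), with a summed TPM of 4.91 to 5.11 in Normal, 83.3 to 267 in IC, 495 to 696 in IS and 168 to 858 in IS-HA. So were 6 of 6 monocyte and macrophage markers (median 4.01), which summed to 11.5 to 12.6 TPM in Normal, 71.1 to 178 in IC, 146 to 271 in IS and 113 to 144 in IS-HA. Of 5 resting microglia markers, 2 were called higher and 0 lower in IS (median 0.47). Their summed TPM was 106 to 123 in Normal and 194 to 223 in IS. Of 5 astrocyte markers, 1 was called higher in IS, Gfap at a log2 fold change of 3.15, and 1 lower, Slc1a2 at -3.74. The part of these changes in the results below was not tested.

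Against Normal, 9 of the 10 genes were higher in each injured group, and Abcg1 was the 1 that did not pass. The background was wide: 10.9% of all tested genes were called higher in IC, 18.8% in IS and 15.1% in IS-HA, and 2.66%, 17.0% and 7.71% were called lower. The median log2 fold change of the 10 genes was 2.20 in IC, 3.12 in IS and 2.56 in IS-HA, where all tested genes had medians of 0.00, 0.02 and 0.06. Fabp4, whose fold rests on 1 count in Normal, lies above these medians also at the lower bound of its ratio. For the same 9 genes every injured rat was above both Normal rats in TPM. The 3 comparisons share the 2 Normal rats, and the counts rest on them. In IC the number called was 4 without Normal replicate 1 (Ch25h, Soat1, Plin2 and Fabp4), against 6.43% of all genes, and 5 without Normal replicate 3, which added Lipa, against 4.92%. In IS it was 8 without Normal replicate 1, against 16.1%. In IS-HA it was 7 without replicate 1 and 5 without replicate 3, against 10.2% and 7.48% of all genes. The 9 calls in each group were also made without IS-HA replicate 2 and by DESeq2's Wald test.

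**Figure D1:**
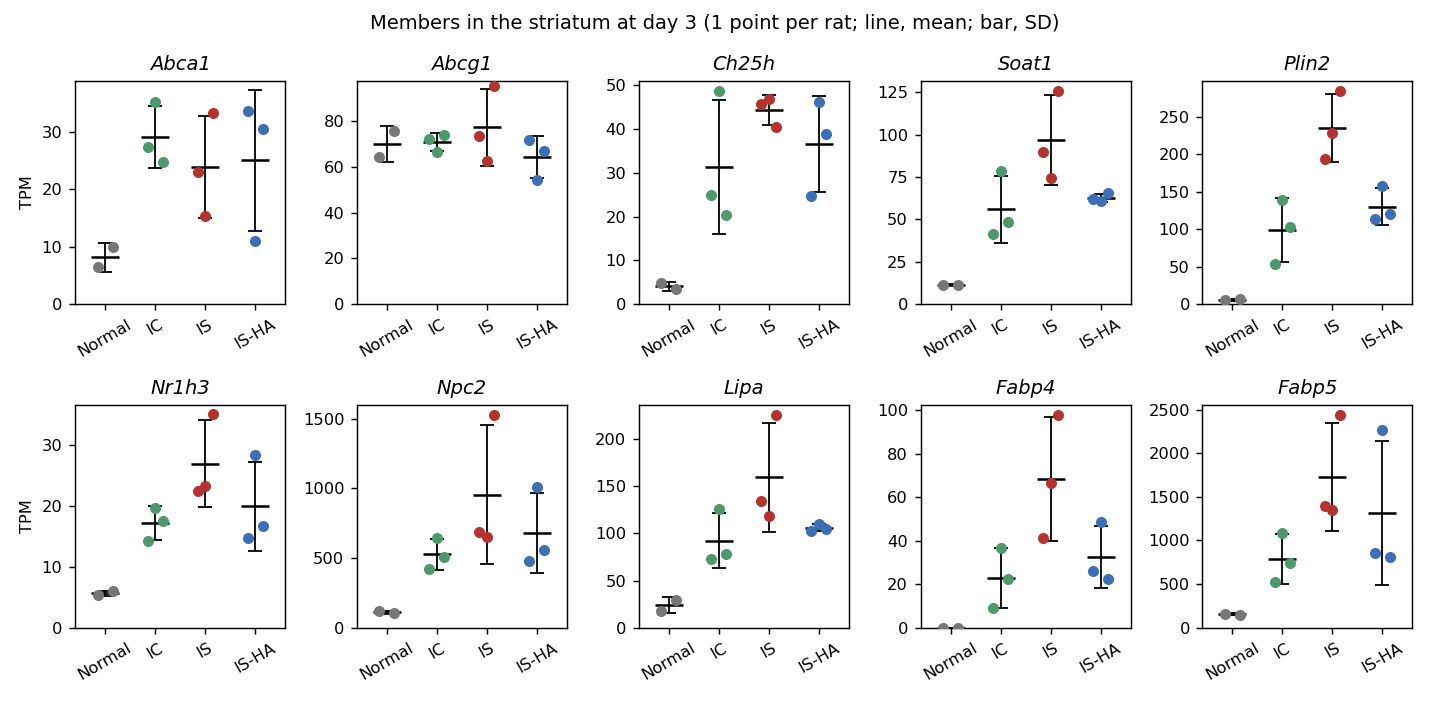
TPM of the 10 genes in each rat by group (points), with the group mean (line) and SD (bar), each panel on its own axis from 0. Abcg1 lies between 54.2 and 95.6 TPM in all 11 rats, whereas the other 9 genes have every injured rat above both Normal rats.

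Plin2, the perilipin that coats cytosolic lipid droplets, had the largest fold change among the 9 genes with more than 3 counts in Normal. It stood at 4.93 and 6.46 TPM in Normal, at 53.8, 139 and 103 TPM in IC replicates 2, 3 and 4, at 194, 229 and 284 TPM in IS replicates 2, 3 and 4, and at 113, 158 and 120 TPM in IS-HA replicates 1, 2 and 3. In TPM all IS rats were above all other rats, and IC and IS-HA overlapped. In CPM normalized as for the test, IS-HA replicate 2 (264) was above IS replicate 2 (259). The log2 fold change against Normal was 4.06 (SE 0.47, adjusted p = 0.000297) in IC, 5.41 (SE 0.50, adjusted p = 4.08e-05) in IS and 4.55 (SE 0.48, adjusted p = 0.000133) in IS-HA. Plin2 made up 63.3% ± 4.75 (SD, n = 2) of the summed TPM of Plin1, Plin2, Plin4 and Plin5 in Normal, and 96.2% ± 1.25, 98.3% ± 0.665 and 96.7% ± 0.792 (SD, n = 3 each) in IC, IS and IS-HA. Plin3 was not matched by symbol and is not in that sum.

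Soat1, the enzyme that esterifies cholesterol for storage, varied little within Normal and within IS-HA. It stood at 11.2 and 11.5 TPM in Normal, at 41.2, 78.5 and 48.3 TPM in IC, at 89.8, 74.4 and 126 TPM in IS, and at 61.9, 60.7 and 65.5 TPM in IS-HA. The log2 fold change against Normal was 2.23 (SE 0.32) in IC, 3.11 (SE 0.33) in IS and 2.46 (SE 0.32) in IS-HA, with adjusted p of 0.000928, 8.43e-05 and 0.000449. Nceh1, which hydrolyses cholesteryl esters outside the lysosome, had -0.69 in IS (SE 0.20, adjusted p = 0.0166), short of the fold cutoff. The ratio of Soat1 to Nceh1 in TPM was 0.201 ± 0.0585 (SD, n = 2) in Normal, and 1.38 ± 0.641, 2.70 ± 0.758 and 1.43 ± 0.344 (SD, n = 3 each) in IC, IS and IS-HA.

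The 2 transporters differed. Abca1, which loads cholesterol onto lipid-poor apolipoproteins, stood at 6.38 and 9.96 TPM in Normal, at 27.3, 35.2 and 24.8 TPM in IC, at 22.9, 15.4 and 33.2 TPM in IS, and at 33.6, 11 and 30.4 TPM in IS-HA. The 3 injured groups overlapped, and the lowest injured rat, IS-HA replicate 2, lay close to the higher Normal rat. Its log2 fold change against Normal was 1.78 (SE 0.41, adjusted p = 0.0137) in IC, 1.59 (SE 0.41, adjusted p = 0.00905) in IS and 1.56 (SE 0.41, adjusted p = 0.0163) in IS-HA. The call was lost in IC and IS-HA without either Normal rat and in IS without Normal replicate 1 (log2 fold change 1.35, adjusted p = 0.0758). With the correction for gene length described below, Abca1 had 2.21 in IS.

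Abcg1, which exports cholesterol to larger lipoproteins, stood at 64.5 and 75.8 TPM in Normal, at 72.5, 66.5 and 74.1 TPM in IC, at 73.8, 62.6 and 95.6 TPM in IS, and at 71.8, 54.2 and 67.2 TPM in IS-HA. Each injured group overlapped Normal. Its log2 fold changes of -0.03, 0.17 and -0.14 (SE 0.21 each) were below their standard errors, and the sign in IC and in IS turned under some alternatives. Abcg1 was the higher of the pair in every rat, and the ratio of Abca1 to Abcg1 in TPM was 0.115 ± 0.023 (SD, n = 2) in Normal, 0.413 ± 0.102 in IC, 0.301 ± 0.0506 in IS and 0.374 ± 0.149 in IS-HA (SD, n = 3 each).

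Nr1h3, the LXRα gene, stood at 5.31 and 5.97 TPM in Normal, 14.3 to 19.7 TPM in IC, 22.4 to 35.1 TPM in IS and 14.8 to 28.3 TPM in IS-HA. Its log2 fold change against Normal was 1.56 (SE 0.41, adjusted p = 0.0265) in IC, 2.28 (SE 0.43, adjusted p = 0.00172) in IS and 1.85 (SE 0.42, adjusted p = 0.00844) in IS-HA. The other LXR gene, Nr1h2, had 60.2 TPM in Normal and a log2 fold change of 0.44 in IS (SE 0.26, adjusted p = 0.181). Nr1h2 was the more abundant receptor gene in both groups, with a mean of 80.5 TPM in IS against 26.9 TPM for Nr1h3.

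Ch25h, which makes 25-hydroxycholesterol, stood at 4.84 and 3.34 TPM in Normal, at 24.9, 48.7 and 20.4 TPM in IC, at 45.7, 46.8 and 40.5 TPM in IS, and at 24.7, 46.2 and 38.8 TPM in IS-HA. The IS rats lay close together while IC spread over more than 2-fold and reached above IS. The log2 fold change against Normal was 2.85 (SE 0.46, adjusted p = 0.00175) in IC, 3.44 (SE 0.47, adjusted p = 0.000308) in IS and 3.17 (SE 0.46, adjusted p = 0.000784) in IS-HA.

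The lysosomal pair rose as well. Npc2, the soluble sterol carrier, stood at 120 and 104 TPM in Normal, at 425, 646 and 509 TPM in IC, at 688, 652 and 1530 TPM in IS, and at 476, 1010 and 557 TPM in IS-HA. IS replicate 4 and IS-HA replicate 2 were the highest rats of their groups. Its log2 fold change was 2.17 (SE 0.53) in IC, 3.13 (SE 0.56) in IS and 2.66 (SE 0.54) in IS-HA, with adjusted p of 0.018, 0.0013 and 0.00497. It stayed called at 2.54 (adjusted p = 0.00234) in IS without IS replicate 4 and at 2.06 (adjusted p = 0.00594) in IS-HA without IS-HA replicate 2. Lipa stood at 17.9 and 29.8 TPM in Normal, 73.2 to 126 TPM in IC, 119 to 226 TPM in IS and 103 to 110 TPM in IS-HA, with log2 fold changes of 1.9 (SE 0.37), 2.79 (SE 0.38) and 2.16 (SE 0.37) and adjusted p of 0.00535, 0.000331 and 0.00202. Npc1, the membrane partner of Npc2, did not follow, with a log2 fold change of -0.45 in IS (SE 0.19, adjusted p = 0.0758). The ratio of Npc2 to Npc1 in TPM was 3.48 ± 0.932 (SD, n = 2) in Normal, and 17.0 ± 3.51, 41.2 ± 23.8 and 24.9 ± 19.2 (SD, n = 3 each) in IC, IS and IS-HA.

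Of the fatty acid carriers, Fabp4 was close to undetected in Normal, with 0 counts in replicate 1 and 1 count in replicate 3. It stood at 9.14, 36.7 and 22.2 TPM in IC, at 41.2, 66.4 and 97.7 TPM in IS, and at 26.3, 48.7 and 22.2 TPM in IS-HA. All IS rats were above all IC rats, and IS-HA overlapped both. A fitted fold against so few counts depends on the prior count of the fit, so the ratio of pooled CPM to Normal is given with its 95% exact interval, which covers counting error only. It was 671 (120 to 26500) in IC, 1920 (344 to 75900) in IS and 858 (154 to 33900) in IS-HA. Of 5 adipocyte markers, Adipoq, Lep and Plin1 stood at 0 in all 3 IS rats, and Cidec at 0.317 to 0.763 TPM. Outside IS, Adipoq reached at most 0.163 TPM (in IC), Lep 0.0683 TPM and Plin1 0.217 TPM (both in IS-HA). The summed TPM of the 5 markers, 13.3 to 14.8 in Normal and 16 to 21.1 in IS, was almost wholly Lipe, a lipase that is also expressed outside fat. Which cells held the Fabp4 RNA was not tested.

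Fabp5 was the most abundant of the 10 genes in every group. It stood at 162 and 150 TPM in Normal, at 529, 1090 and 745 TPM in IC, at 1390, 1350 and 2440 TPM in IS, and at 858, 2270 and 813 TPM in IS-HA. IS-HA replicate 2 lay among the IS rats, and the other 2 IS-HA rats lay among the IC rats. The log2 fold change against Normal was 2.27 (SE 0.59, adjusted p = 0.0249) in IC, 3.50 (SE 0.63, adjusted p = 0.00145) in IS and 3.16 (SE 0.62, adjusted p = 0.00416) in IS-HA. The value of Fabp5 in IS-HA was 2.28 (SE 0.39, adjusted p = 0.00218) without IS-HA replicate 2 and 2.30 with the correction for gene length, which gave 2.79 in IS. As a share of the summed TPM of all fatty acid binding protein genes, Fabp5 had 52.6% ± 0.351 (SD, n = 2) in Normal and 57.2% ± 6.94, 70.8% ± 9.53 and 67.5% ± 9.75 (SD, n = 3 each) in IC, IS and IS-HA. Fabp4 reached 2.83% ± 0.833 (SD, n = 3) in IS. The share of Fabp3, the heart-type carrier, went from 7.37% ± 0.475 (SD, n = 2) in Normal to 0.569% ± 0.168 (SD, n = 3) in IS. That share also depends on the other genes in the sum. Fabp3 itself had a mean of 21.9 TPM in Normal and 13.1 TPM in IS. Its log2 fold change was -0.73 (SE 0.25, adjusted p = 0.0322), short of the fold cutoff. Fabp5 has processed copies in the genome, and reads that the counting split among them would not be seen here.

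**Figure D2:**
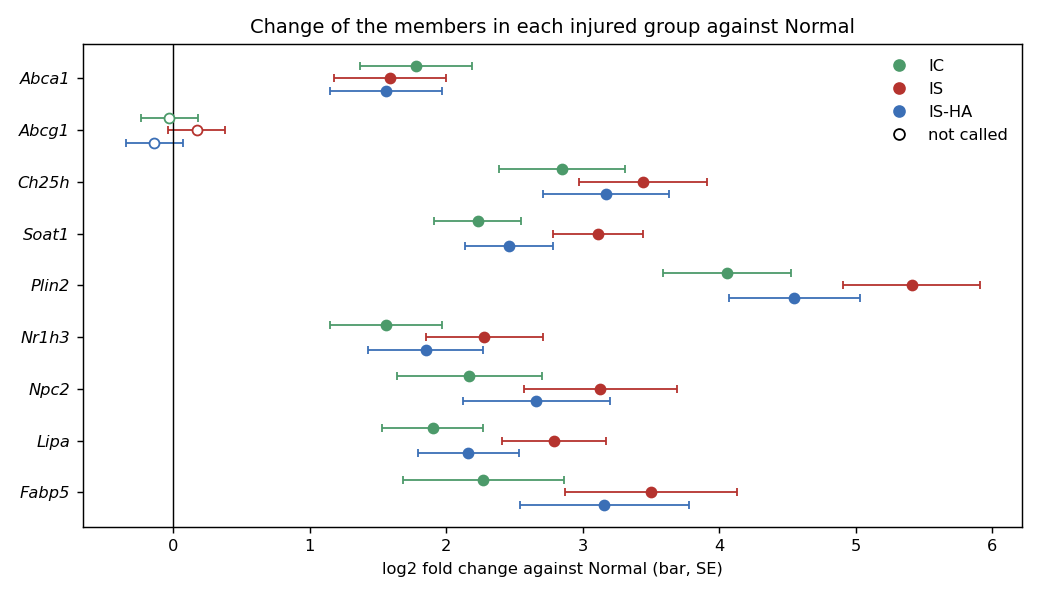
Log2 fold change against Normal, with its SE, for 9 of the 10 genes in IC, IS and IS-HA from the edgeR fit (filled points, called). Fabp4 is left out because its Normal level rests on 1 count. Plin2 lies farthest right, at 5.41 in IS, and Abcg1 straddles 0.

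In order of mean TPM, Fabp5 and Npc2 led in all 4 groups, at 156 and 112 TPM in Normal and at 1730 and 957 TPM in IS. Plin2 took the third place in each injured group, where Abcg1 held it in Normal. Neighbours in IS such as Ch25h (44.3 ± 3.35 TPM) and Nr1h3 (26.9 ± 7.11 TPM) did not overlap, whereas Nr1h3 and Abca1 (23.8 ± 8.91 TPM) did (SD, n = 3 each).

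Severity was addressed by IS against IC, where 9 of the 10 genes had a positive log2 fold change and 0 were called, as were 0% of all tested genes. The median of the 10 was 0.89, against 0.00 over all genes. At an unadjusted p under 0.05, 5 were higher (Soat1, Plin2, Lipa, Fabp4 and Fabp5), against 10.5% of all genes. In TPM, every IS rat was above every IC rat for 5 genes (Plin2, Nr1h3, Npc2, Fabp4 and Fabp5), as for 15.4% of all genes. The largest differences were Fabp4 at 1.69 (SE 0.54, adjusted p = 0.159), Plin2 at 1.34 (SE 0.35, adjusted p = 0.147) and Fabp5 at 1.23 (SE 0.49, adjusted p = 0.192). Npc2 had 0.96 (SE 0.44), Lipa 0.89 (SE 0.31), Soat1 0.88 (SE 0.26), Nr1h3 0.73 (SE 0.35) and Ch25h 0.59 (SE 0.35), with adjusted p from 0.152 to 0.324. These values were smaller without IS replicate 4 for 7 genes. Npc2 then had 0.37 (SE 0.38), Lipa 0.49 (SE 0.26), Soat1 0.58, Nr1h3 0.43, Fabp5 0.83 (SE 0.50), Plin2 1.13 and Fabp4 1.29, and 0 were called.

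The call in this comparison turned on the test and on 1 library that is not in it. DESeq2's Wald test called 2 of the 10 higher (Plin2, adjusted p = 0.0130, and Fabp4, adjusted p = 0.0391), against 1.63% of all genes. Without IS-HA replicate 2, which enters through the shared estimate of the spread, edgeR called 3 (Plin2 at 1.35, Fabp4 at 1.69 and Fabp5 at 1.23, with adjusted p of 0.028, 0.0392 and 0.0329), against 2.19% of all genes. Voom with a quality weight per rat called the same 3 genes, against 2.15% of all genes. Abca1 and Abcg1 had -0.20 (SE 0.34) and 0.20 (SE 0.19) and were not called by any of these. The sign of Abca1 turned to 0.12 with a correction for gene length.

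Aspiration was addressed by IS-HA against IS, where all 10 log2 fold changes were negative and 0 were called, as were 0% of all tested genes. The median of the 10 was -0.45, against 0.05 over all genes. At an unadjusted p under 0.05, Soat1 (-0.66, SE 0.26, adjusted p = 0.545) and Plin2 (-0.86, SE 0.35, adjusted p = 0.550) were lower, against 3.36% of all genes. Every IS-HA rat was below every IS rat in TPM for Soat1, Plin2 and Lipa, as for 6.37% of all genes. In CPM normalized as for the test, this held for Soat1 but not for Plin2 and Lipa. On that scale Plin2 was 264 in IS-HA replicate 2 against 259 in IS replicate 2. Lipa was 184 in IS-HA replicate 2 against 171 in IS replicate 3. Fabp4 had the largest difference, -1.07 (SE 0.54, adjusted p = 0.563), and its groups overlapped. Abca1 (-0.03, SE 0.34) and Ch25h (-0.27, SE 0.35) had differences below their standard errors. That does not show that they were equal in the 2 groups. DESeq2 called 0 of the 10 (0.121% of all genes).

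Leaving out IS-HA replicate 2 moved these differences farther below 0 for all but Abca1 and Abcg1. Fabp5 went from -0.34 to -1.22 (SE 0.35, adjusted p = 0.0638), Npc2 from -0.47 to -1.07 (SE 0.39, adjusted p = 0.102), Nr1h3 from -0.43 to -0.94 (SE 0.26, adjusted p = 0.062) and Fabp4 from -1.07 to -1.67 (SE 0.53, adjusted p = 0.0759). Plin2 went from -0.86 to -1.19 (SE 0.35, adjusted p = 0.0668). Still 0 of the 10 were called, against 0.541% of all genes, and Abca1 turned to 0.26. Without IS replicate 4, in turn, Npc2 stood at 0.12, Fabp5 at 0.06 and Abca1 at 0.35. The negative values shrank for 5 genes, with Soat1 at -0.36 (SE 0.24), Plin2 at -0.65, Lipa at -0.22 (SE 0.26), Nr1h3 at -0.13 and Fabp4 at -0.66. The adjusted p was 0.999 for each of these 8 genes.

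**Figure D3:**
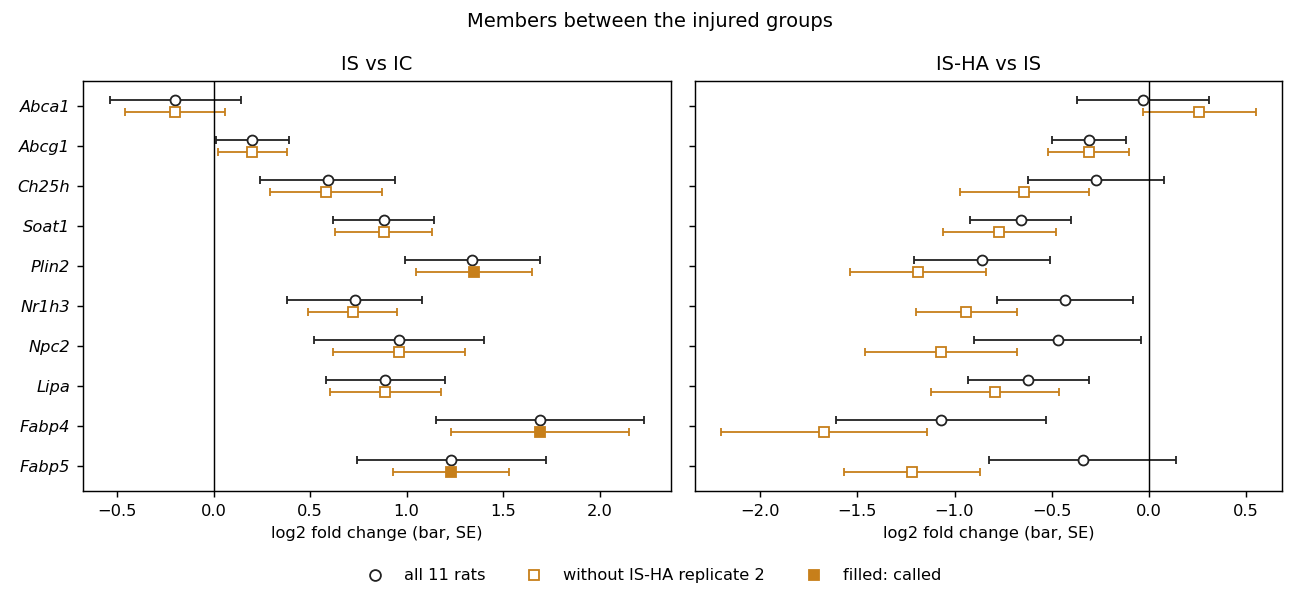
Log2 fold change, with its SE, of the 10 genes in IS against IC (left) and IS-HA against IS (right), over all 11 rats (circles) and without IS-HA replicate 2 (squares). Filled points were called. The 3 filled squares are Plin2, Fabp4 and Fabp5 in IS against IC, and every circle on the right lies below 0.

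Between IS-HA and IC, 0 of the 10 genes were called higher, as were 0% of all genes, and 0 of the 10 passed an unadjusted p of 0.05 (2.59% of all genes) or DESeq2 (0.0572%). The largest difference was Fabp5 at 0.89 (SE 0.49, adjusted p = 0.841), which fell to 0.01 without IS-HA replicate 2. Plin2 had 0.49 (SE 0.34) and Soat1 0.22 (SE 0.26). The comparisons among IC, IS and IS-HA share samples, so their directions do not bear on one another independently.

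The genes were also set against the phagocytes. The mean log2 CPM of Aif1, Csf1r, Itgam and Tyrobp rose over its Normal mean by 3.02 in IC, 3.51 in IS and 3.20 in IS-HA. Relative to that mean in the same rat, Plin2 was higher than in Normal by 0.92 in IC, 1.85 in IS and 1.28 in IS-HA. Ch25h kept close to it, at -0.29, -0.11 and -0.15, and Fabp5 stood at -0.81, -0.08 and -0.31. The rest rose less than the phagocyte genes, with relative values of -0.84, -0.45 and -0.76 for Soat1 and of -1.23, -1.98 and -1.72 for Abca1. Abcg1, which was not called in the tissue, stood at -3.05, -3.37 and -3.34. Fabp4 was not placed on this scale because of its 1 count in Normal. The values depend on which markers set the scale. Against Normal, the log2 fold change in IC, IS and IS-HA was 2.05, 2.15 and 2.12 for Csf1r, 2.83, 2.79 and 2.56 for Itgam, and 3.05, 3.82 and 3.70 for Aif1. It was 4.18, 5.41 and 4.89 for Tyrobp, which Plin2 did not exceed in any group. Of the 2 markers outside the scale, Cd68 had 6.22, 6.92 and 6.23, above Plin2 in each group, and Ptprc had 3.55, 4.22 and 3.58. The relative values describe 2 Normal and 9 injured rats and carry no test.

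**Figure D4:**
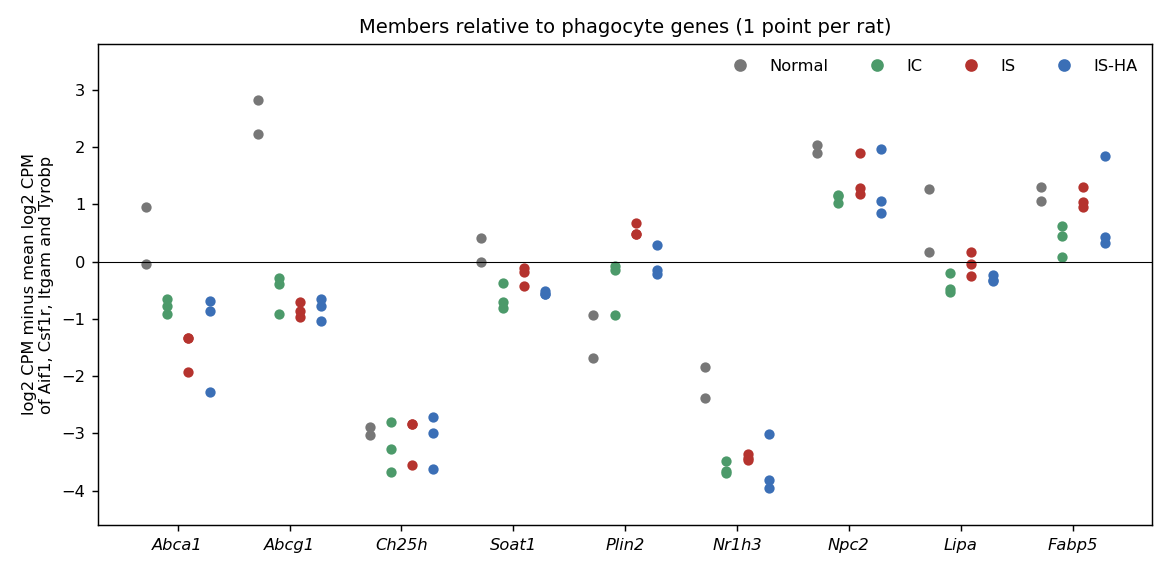
Log2 CPM of 9 of the 10 genes minus the mean log2 CPM of Aif1, Csf1r, Itgam and Tyrobp in the same rat, 1 point per rat by group, without Fabp4. Plin2 is the gene whose IS rats lie above both Normal rats. The injured rats lie below both for Abcg1, and also for Abca1, Soat1, Nr1h3 and, by a small margin, Lipa.

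The level of long genes relative to short genes moved with the groups. The median deviation of long genes minus that of short genes was 0.43 and 0.76 on the log2 scale in Normal, -0.06 to 0.22 in IC, -0.44 to -0.20 in IS, and 0.18, -0.90 and 0.18 in IS-HA replicates 1, 2 and 3. Fabp5 lay at the 3.3 percentile of length, Ch25h at 11.6 and Npc2 at 16, whereas Abca1 lay at 93.1. With a correction for gene length, chosen after the data were seen, 9 of the 10 genes were called in each injured group against Normal, and Fabp5 in IS against IC was 0.86 (SE 0.32, adjusted p = 0.159) in place of 1.23.

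The neighbours of these genes in the pathway were counted from 9 lists, in IS against Normal unless stated, where 18.8% of all tested genes were called higher and 17.0% lower. Of 11 tested further LXR target genes, 7 were higher and 2 lower, with a median log2 fold change of 1.72. Smpdl3a, a phosphodiesterase induced by LXR in macrophages, had 3.47 (SE 0.53, adjusted p = 0.000618), and Apoc1, an apolipoprotein, 3.01 (SE 0.93, adjusted p = 0.0212). Apoe, the main apolipoprotein of the brain and named here after its values were seen, rose by 2.54 (SE 0.71, adjusted p = 0.0134), from a mean of 2610 to 14800 TPM. The IS rats ran from 9730 to 24800 TPM for Apoe (median 9810) and from 13.3 to 49.6 TPM for Apoc1 (median 16.0). The lipogenic target Srebf1 did not pass (-0.44, adjusted p = 0.0749), and Scd (-1.05) and the neuronal transporter Abcg4 (-1.11) were lower, both also named after their values were seen. In IC, 3 were higher and 0 lower, against 10.9% and 2.66% of all genes, and in IS-HA 6 and 0, against 15.1% and 7.71%. Of 6 receptors, partners and corepressors, 1 was higher and 2 were lower, with Rxrg at -2.31 (SE 0.41, adjusted p = 0.0013), Rxra at 1.16 (SE 0.44, adjusted p = 0.0472) and Ncor1 at -1.16 (SE 0.24, adjusted p = 0.00302), the last 2 being level at this precision. With 6 genes, counts of 1 and 2 are not set apart from the shares over all genes.

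Of 15 tested further lipid droplet genes, 5 were higher and 1 lower, with a median of 0.42. G0s2, an inhibitor of the triglyceride lipase Pnpla2, had 2.50 (SE 0.32, adjusted p = 0.000219), and Plin5, another droplet coat, 2.48 (SE 0.64, adjusted p = 0.00936) from a mean of 0.341 TPM in Normal. Of 16 further lysosomal lipid genes, 8 were higher and 0 lower, with a median of 0.95, led by Psap at 2.02 (SE 0.33, adjusted p = 0.000889) and Galc at 2.02 (SE 0.23, adjusted p = 0.000122), which serve sphingolipid breakdown. Of 6 further efflux and lipoprotein genes, 1 was higher and 0 lower (median 0.75), a share near that over all genes, namely Lcat, which esterifies cholesterol on lipoproteins, at 1.51 (SE 0.47, adjusted p = 0.0213). Of 3 tested further fatty acid binding proteins, 2 were higher and 0 lower (median 2.28), Pmp2 of myelin at 4.61 (SE 0.58, adjusted p = 0.000196) and Fabp7 of glial precursors at 2.28 (SE 0.36, adjusted p = 0.000703). Pmp2 had only 13 counts over both Normal rats.

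Of 6 oxysterol genes, 3 were higher and 1 lower (median 0.60). Gpr183, the receptor for a product of 25-hydroxycholesterol, had 4.61 (SE 0.46, adjusted p = 5.78e-05), and Cyp39a1, an oxysterol hydroxylase, 4.10 (SE 0.59, adjusted p = 0.000418) at a mean of only 1.54 TPM in IS. Cyp39a1 had 4 counts over both Normal rats. Of 10 tested lipid uptake and PPAR genes, 3 were higher and 1 lower (median 0.31). The scavenger receptor Msr1 had 6.52 (SE 0.52, adjusted p = 3.13e-05), from 10 counts over both Normal rats. Cd36 had 1 count over both Normal rats and 121 over the IS rats, a ratio of CPM of 148 with an exact 95% interval from 26.1 to 5900. This interval covers counting error only. The IS rats ran from 0.415 to 3.59 TPM, with a median of 0.715 TPM. Of 13 sterol synthesis genes, 0 were higher and 6 lower (median -0.92), among them the sterol carrier Stard4 at -1.91 (SE 0.49, adjusted p = 0.00847) and Hmgcs1, an early enzyme of the pathway, at -1.77 (SE 0.28, adjusted p = 0.00066). Neuron markers fell in the same comparison, and their part in this was not tested. Among the injured groups, 0 genes of the 9 lists were called.

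**Figure D5:**
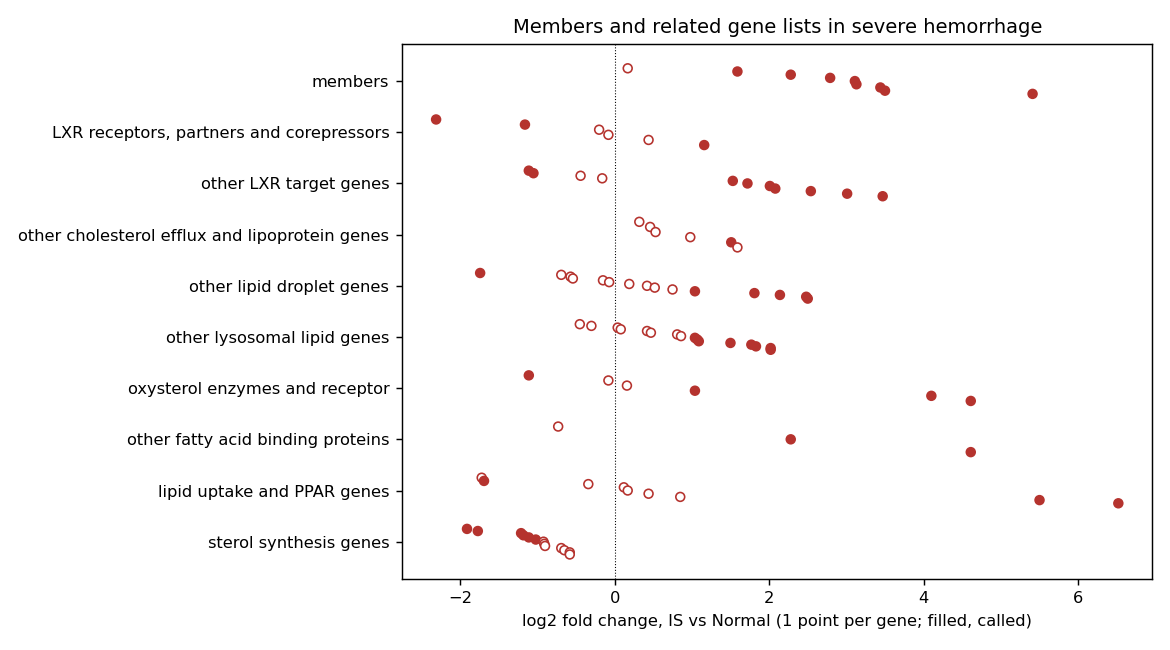
Log2 fold change in IS against Normal for the examined genes (top row, without Fabp4) and each tested gene of the 9 lists (without Cd36), 1 point per gene, filled where called. The sterol synthesis genes lie left of 0, and the lysosomal list has filled points to the right alone.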

How the data were processed

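Per the labels, poly(A) RNA was made into stranded libraries and read from both ends at 150 bases. The submitters' processing notes name fastp 0.20.0, HISAT2 2.1.0, SAMtools 1.9, featureCounts and the build mRatBN7.2. The strand setting of the counting is not given in the sources used here. The table that the authors deposited holds raw read counts for every gene, as whole numbers, and TPM, which is corrected for gene length and has the same sum in each rat. Library names tied each column to a rat, with 0 columns unmatched.

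Counts were filtered with filterByExpr, normalized by TMM and tested with edgeR 4.0.16 in R 4.3.3 in 1 quasi-likelihood fit over the 4 groups, giving 6 comparisons over 15742 genes (common dispersion 0.0691). The SE was approximated from the log2 fold change and its F statistic. The cutoffs (adjusted p under 0.05, log2 fold change of at least 1) are those the study used for IS against IC, applied here to all 6. The scripts were tested on simulated data.

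The genes, the lists and the tests were chosen with earlier results of these data known. The text names the 10 genes, from each list the 2 called genes with the largest change in IS against Normal, and the 4 phagocyte genes that set the scale. Nceh1, Npc1, Nr1h2 and Fabp3, as partners or relatives of the 10, further cell type markers and those said so in the text were named after their values were seen. Alternatives were other scalings, filters and tools (DESeq2 1.42.0, limma 3.58.1), each rat left out, the replicate block, and, after the data were seen, a correction for gene length. Plots were drawn with matplotlib 3.10.9. Promoters came from RefSeq (GRCr8), and no coordinates were moved between builds.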

Additional observations from a re-analysis of the deposited data

How the results depend on the processing

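Of 1434 single-gene values under alternative settings, 1367 kept their direction and side of the threshold, 32 lost a call, 8 gained 1 and 27 turned sign. Leaving out 1 rat gave 4 to 9 called genes in IC against Normal, 8 to 9 in IS against Normal, 5 to 9 in IS-HA against Normal and 0 to 3 in IS against IC. In IS against IC, DESeq2 called 2 and voom 3. The minimum of 10 counts in every rat removed Fabp4, and library size alone moved the median of all genes against Normal by 0.13 to 0.14 on the log2 scale. Normal has 2 rats, and at this depth Fabp4 and Cd36 have no firm level in it.

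Same-numbered rats are different animals. The correlations of their deviations ran from -0.34 to 0.356 for IC and IS and from -0.475 to -0.0894 for IS and IS-HA. They ran from -0.364 to 0.0483 for IC and IS-HA and from -0.364 to 0.338 for Normal and IS-HA. These pairs of groups share only 2 or 3 numbers each. Whether a number stands for a shared step of the work therefore cannot be told from these values. With the replicate block, 4 genes were called in IC against Normal, and 5 with the block and the gene length correction. In IS against Normal, Npc2 had 2.46 with the block and 2.21 with both, Fabp5 2.49 and Nr1h3 1.53 with both, and in IC against Normal Npc2 had 1.58 with both. Abcg1 stood with the block at -0.05 in IS against Normal and at 0.05 in IS-HA against IC, and at 0.11 there with the length correction added.

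Where leaving out 1 rat turned the sign, the values of such fits ran from -0.13 to 0.05 for Abcg1 in IC against Normal, -0.07 to 0.32 in IS against Normal and -0.04 to 0.34 in IS against IC. They ran from -0.58 to 0.05 for Abca1 in IS against IC, and in IS-HA against IS from -0.30 to 0.35 for Abca1, -1.07 to 0.12 for Npc2 and -1.22 to 0.06 for Fabp5. In IS-HA against IC they ran from -0.45 to 0.06 for Abca1, -0.06 to 0.73 for Ch25h, -0.21 to 0.53 for Nr1h3 and -0.11 to 0.75 for Npc2. Abcg1 in IC against Normal had 0.11 with library size alone, 0.02 without Normal replicate 3, with voom and with limma on log2(TPM + 1) or log2(TPM + 0.1), and 0.05 without IC replicate 3 and with the length correction. Without IS replicate 4, Abcg1 had -0.07 in IS against Normal and -0.04 in IS against IC, where voom gave -0.01. Abca1 in IS against IC had 0.05 without IS replicate 3, 0.12 with the length correction and 0.05 with the block added. In IS-HA against IS, Abca1 had 0.35 without IS replicate 4, 0.26 without IS-HA replicate 2 and 0.51 with voom, and Npc2 and Fabp5 had 0.12 and 0.06 without IS replicate 4. In IS-HA against IC without IS-HA replicate 2, Abca1 had 0.06, Ch25h -0.06, Nr1h3 -0.21 and Npc2 -0.11, and voom gave 0.06 for Abca1 and -0.15 for Nr1h3. The cause was not tested.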
